A study of Mus musculus with 8 samples.

Results

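The methionine cycle and the sulfur amino acid pathway that leads out of it were examined in the livers of mice fed a Control or a Low AA diet. The 9 genes Mat1a, Gnmt, Ahcy, Bhmt, Mtr, Cbs, Cth, Cdo1 and Csad were taken by symbol for their place in the pathway. They were chosen with earlier results of these data known. All 9 are among the 11784 genes of the deposited table. Both groups were male C57BL/6J mice switched to an amino acid defined diet at 9 weeks of age. The Control group (TD.140711, n = 4) and the Low AA group (TD.140712, n = 4) stayed on their diets for about 4 months, and livers were taken after an overnight fast of about 16 hours. In the Low AA diet a smaller share of calories comes from amino acids and a larger share from carbohydrate. All 8 mice were fasted, so the values describe the fasted liver on either diet.

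Methionine adenosyltransferase joins methionine to ATP to give S-adenosylmethionine, the methyl donor of most methylation reactions, and the liver is the main site of this step. The spent donor is hydrolysed to homocysteine. Homocysteine is then either remethylated to methionine or passed through transsulfuration to cysteine, and cysteine that is not used for protein or glutathione is oxidised toward taurine and sulfate. The liver is known to spare methionine by remethylation when sulfur amino acids are scarce and to dispose of sulfur by transsulfuration and cysteine oxidation when they are plentiful.

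The values are scaled read counts, whole numbers that sum to between 27876664 and 30799385 per mouse. The 6 hepatocyte markers examined, among them Alb, Apoa1 and Hnf4a, summed to between 2004658 and 2315731 in the Control mice and between 2230533 and 2465820 in the Low AA mice, and none had an unadjusted p under 0.05 in limma. Control mouse F2212 stood apart for Cela1, the 1 exocrine pancreas marker in the table, at 36587 against 130 to 288 in the other mice. The biliary markers summed to between 826 and 1316 in the Low AA mice and between 1124 and 2265 in the Control mice, and the 6 blood markers to between 10093 and 14931 and between 7768 and 30071. No biliary or blood marker passed the limma threshold. An unadjusted p under 0.05 was found for 2 of 4 biliary markers (median log2 fold change -0.62) and 3 of 6 blood markers (median -0.49), against 11.8% of all genes. The count was 1 of 6 for Kupffer cell and macrophage markers and 0 of 5 each for stellate and sinusoidal endothelial markers. The part of these cell types in the results was not tested.

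Per kilobase of exon, the 9 genes lay at very unequal levels. The length used was that of the merged exons of all annotated transcripts of a gene, not of the transcript expressed in liver. Mat1a, the liver form of methionine adenosyltransferase, had the highest level, a mean of 105114 scaled read counts per kilobase over the 8 mice. Bhmt, Ahcy, Cdo1 and Gnmt followed, with means of 43398, 37939, 29353 and 22270. The range of Mat1a over the mice, 70754 to 133954, lay above that of Bhmt, 21090 to 59735. Each neighbouring pair from Bhmt to Gnmt overlapped in range. Within a mouse, Bhmt stood above Ahcy in 5 of 8 mice, Ahcy above Cdo1 in 8 and Cdo1 above Gnmt in 7, and the range of Ahcy, 30449 to 48856, lay above that of Gnmt, 13777 to 29940. Cth, at 8513, lay below Gnmt in all 8 mice. Csad and Cbs overlapped, at 1747 and 1664, and Csad was the higher of the pair in 4 of 8 mice. This overlap depends on the lengths used. In scaled read counts Cbs, at 10302 to 15092, lay above Csad, at 4610 to 9881. Mtr was far below the rest, at 13.0 per kilobase, and Bhmt, a homocysteine methyltransferase that uses betaine in place of folate, stood 3333 times above it. Without correction for length, Mat1a ranked 5 and Bhmt 10 among the 11784 genes by mean scaled read count, while Mtr ranked 9496. Mat1a then ranged from 245376 to 464552 and Bhmt from 121434 to 343951, so these ranges overlapped. Together the 9 genes held between 2.13% of the summed values, in Control mouse F2212, and 3.50%, in Low AA mouse H1315.

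The stretches just before the start sites of these genes are given here as a description, with that of Mat2a, the partner gene of Mat1a. How alike these promoters are was not tested. RefSeq promoter sequences on GRCm38.p6, the build that mm10 names, were matched for 6 of the 9 genes. Mat1a, Cth and Cdo1 had no entry. Each run covers 30 bases, from 38 to 9 bases before the start, 5′ to 3′ on the strand of the gene, with the letters TATAA in capitals where they occur. Csad has entries at more than 1 start, and 1 of them is shown.
Gnmt, chr17:46729174-46729203, minus strand: cagaggatTATAAgtgcggatcgcgtggcc
Mat2a, chr6:72439565-72439594, minus strand: ctgctcTATAAatactgggccgcttcgccc
Bhmt, chr13:93637767-93637796, minus strand: tgcagacgagctagcagcgacctcagtatt
Ahcy, chr2:155074506-155074535, minus strand: cccctaagtttcagcccccagcaggttcat
Cbs, chr17:31637214-31637243, minus strand: gccctccgccccccggcgccgggccaatcg
Mtr, chr13:12258122-12258151, minus strand: cggcgcagtggcggcggcggccgtctctac
Csad, chr15:102205061-102205090, minus strand: ctacctccttcatttgactggaagctccct
The letters TATAA stood in this window, on the strand of the gene, in 3.68% of 32851 promoters, and among these genes in Gnmt and Mat2a. Over the 300 bases of an entry, Cbs, Gnmt and Mtr had 66.7%, 62.0% and 62.0% G and C, against a median of 52.7% over all promoters. Ahcy had 52.7%, Bhmt 48.0% and the Csad entry shown 47.3%, while another Csad entry had 55.3%. None of the 6 genes held the letters TGATGNAA of the C/EBP-ATF response element, on either strand, which 3.97% of all promoters hold. None held TGACNNNGC, the antioxidant response element, which 12.4% hold. The absence of these letters describes the 300 bases only.

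No gene of the methionine cycle or of cysteine catabolism passed the threshold between the diets. Of the 9 genes, 0 had an adjusted p under 0.05 in limma, fitted on log2(value + 1) over all 11784 genes with Benjamini-Hochberg adjustment, where 0.399% of all genes did. At an unadjusted p under 0.05 the count was again 0 of 9, against 11.8% of all genes. In 0 of the 9 did the values of the diets separate without overlap, which 6.81% of all genes did. The log2 fold changes, Low AA over Control, ran from -0.40 for Csad to 0.41 for Mat1a, with 6 above 0 and 3 below and a median of 0.12, against a median of 0.00 over all genes. In bulk liver, fewer cells of a type and less RNA per cell cannot be told apart.

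**Figure D1:**
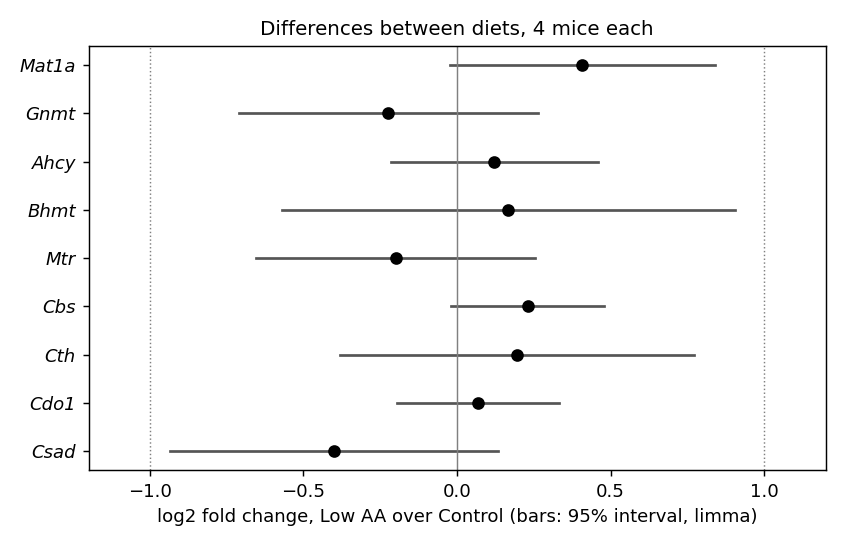
Log2 fold change of each gene, Low AA over Control, as points on the horizontal axis, with bars for the 95% interval of the limma fit (4 mice per diet). Every bar crosses 0 and every bar ends inside the dotted lines at -1 and 1, with Csad reaching to -0.94 and Bhmt to 0.90.

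The 95% intervals, each for 1 gene with no adjustment for their number, limit how large a difference could have been missed. All 9 lay inside -1 and 1 on the log2 scale. The narrowest were those of Cbs (-0.02 to 0.48) and Cdo1 (-0.20 to 0.33), and the widest was that of Bhmt (-0.57 to 0.90). Among the 47 genes called in the whole table the smallest change was 0.59 in size, larger than the estimate for any of the 9. Genes are called in part for the size of their change, so this contrast does not show that the 9 changed less. The intervals of Mat1a, Gnmt, Bhmt, Mtr, Cth and Csad reached past 0.59 in size. The bound at -1 and 1 rests on all 8 mice. With 1 mouse left out, intervals of Bhmt and Csad passed it in 3 fits each, up to 1.11 for Bhmt without Control mouse F2110 and down to -1.08 for Csad without Control mouse F7111.

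The first step of the cycle was described by Mat1a (ENSMUSG00000037798.7, chromosome 14, 41105035 to 41124412 on GRCm38). Its scaled read counts were 394528, 337783, 456535 and 464552 in Low AA mice H1126, H828, H817 and H1315, and 245376, 263395, 341426 and 412685 in Control mice F129, F2212, F7111 and F2110. Control mouse F2110 lay above Low AA mice H1126 and H828, and Control mouse F7111 lay above H828, so the groups overlapped. The means were 413350 ± 59305 and 315721 ± 76918 (SD, n = 4 each), which gave 0.41 as the log2 fold change (standard error, SE, 0.20, limma adjusted p = 0.457). This was the largest positive value among the 9 genes. Mat2a, which encodes the form of the enzyme found in most other tissues, is far lower in liver, and Mat1a stood 126 times above it per kilobase.

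Mat2a did separate the diets without reaching the threshold. Its values were 4690, 4424, 4541 and 3877 in the Low AA mice and 2581, 2765, 3545 and 3412 in the Control mice, in the same orders as above. All 4 Low AA mice lay above all 4 Control mice (log2 fold change 0.52, SE 0.12, limma adjusted p = 0.119). It stayed between 0.44 and 0.59 with any 1 mouse left out. Mat2b, the regulatory subunit that pairs with Mat2a, was nearly level between the diets (log2 fold change 0.02, limma adjusted p = 0.962).

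Methyl use was represented by Gnmt (chromosome 17, 46725664 to 46729168), whose product methylates glycine and so runs down an excess of S-adenosylmethionine. Scaled read counts were 23012, 16615, 24765 and 36108 in the Low AA mice and 22123, 32793, 27221 and 32222 in the Control mice. The highest and the lowest of all 8 values were both in Low AA mice, H1315 and H828. The log2 fold change was -0.22 (SE 0.22, limma adjusted p = 0.767), and it ran from -0.42 without H1315 to -0.04 without H828. Ahcy (chromosome 2, 155059310 to 155074497) encodes the hydrolase that clears S-adenosylhomocysteine. Low AA mice spanned 94950 to 137041 and Control mice 85408 to 116784, so the groups overlapped (log2 fold change 0.12, SE 0.15, limma adjusted p = 0.825).

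**Figure D2:**
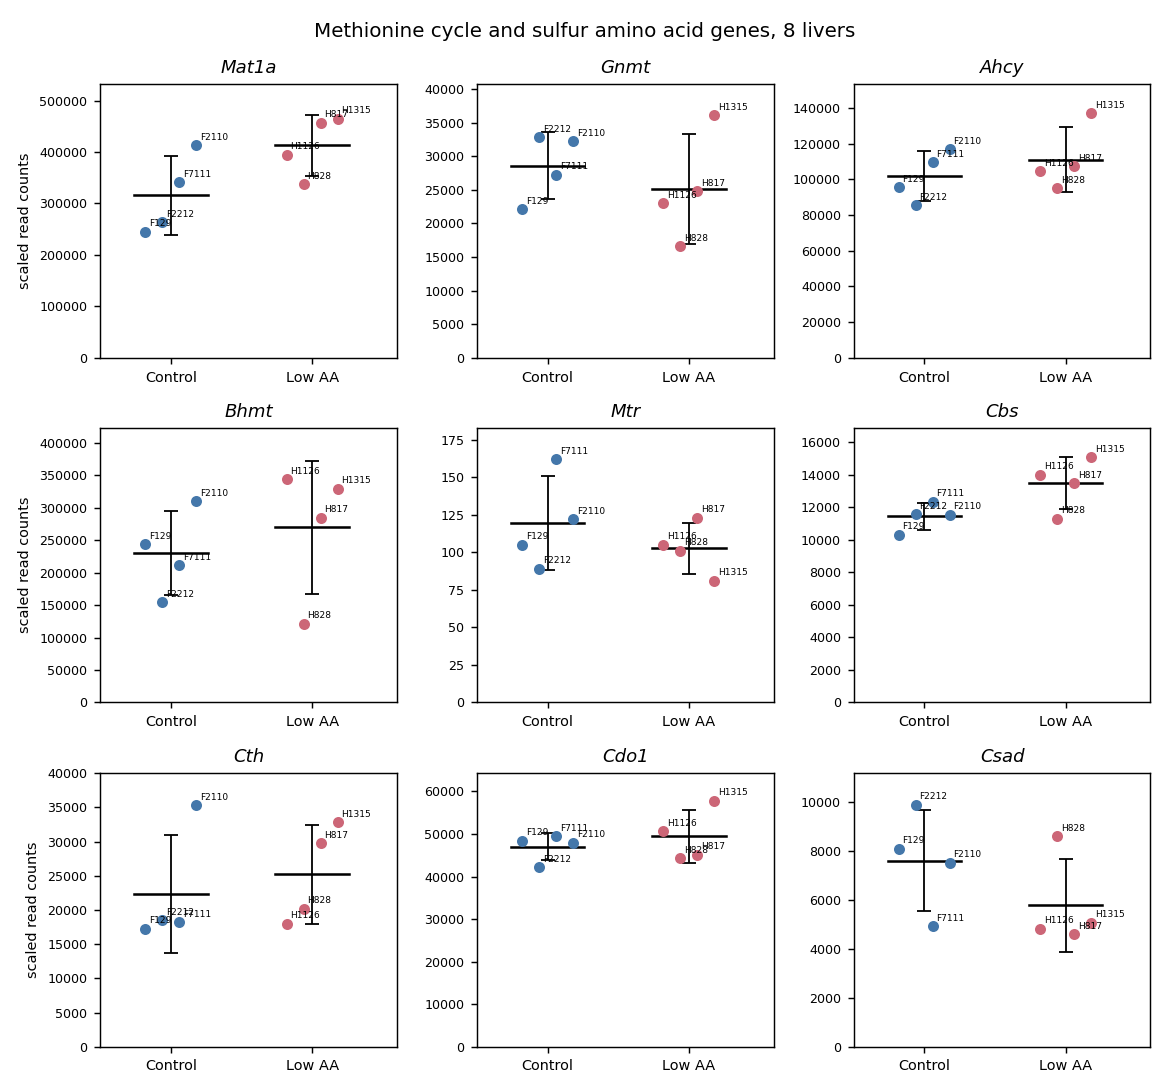
Scaled read counts of each gene (vertical axes start at 0) in the 4 Control and 4 Low AA livers. Points are mice with their codes, horizontal lines are means and error bars are SD. The diets overlap in every panel, and Low AA mouse H828 stands low for Bhmt (121434) and high for Csad (8601).

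Other genes that supply or use S-adenosylmethionine were a list of 18 genes, of which 0 passed the limma threshold in either direction and 4 had an unadjusted p under 0.05, which is 22.2% against 11.8% of all genes. Their median log2 fold change was -0.08. Nnmt, which methylates nicotinamide and can be a large hepatic consumer of the donor, had the most negative value of the list. Its scaled read counts were 1266, 940, 2707 and 4563 in the Low AA mice and 3574, 7547, 4352 and 6969 in the Control mice. Low AA mouse H1315 lay inside the Control range, and the log2 fold change was -1.45 ± 0.45 (SE, limma adjusted p = 0.22). Mettl7a1, of the methyltransferase-like family, had 2343 to 3442 in the Low AA mice and 4131 to 4741 in the Control mice, with no overlap (log2 fold change -0.59, limma adjusted p = 0.0841).

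Homocysteine is remethylated by Bhmt with betaine and by Mtr with methylfolate. Bhmt (chromosome 13, 93616675 to 93637961) had scaled read counts of 343951, 121434, 284776 and 329206 in the Low AA mice and 244322, 154436, 211098 and 309849 in the Control mice. The lowest value of all 8 was that of Low AA mouse H828 and the highest that of H1126, so the Low AA mice enclosed the Control range. The log2 fold change was 0.17 ± 0.33 (SE, limma adjusted p = 0.898). Leaving out Control mouse F2212 brought it to -0.01, and leaving out H828 brought it to 0.51. Mtr (chromosome 13, 12182712 to 12258113) had 105, 101, 123 and 81 in the Low AA mice and 105, 89, 162 and 122 in the Control mice. At this low level the log2 fold change was -0.20 (SE 0.20, limma adjusted p = 0.777). Bhmt and its neighbour in the family, Bhmt2, may share reads, and how such reads were counted is not stated. Bhmt2 ranged from 6565 to 8980 and from 6457 to 9085 (log2 fold change 0.07, limma adjusted p = 0.903).

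Of 13 other genes that serve remethylation, 0 passed the limma threshold in either direction and 4 (30.8%, against 11.8% of all genes) had an unadjusted p under 0.05, with a median log2 fold change of -0.03. Mtrr, which reactivates the Mtr enzyme, was near level between the diets (log2 fold change -0.03, limma adjusted p = 0.963). Aldh7a1, an aldehyde dehydrogenase that can form betaine and also acts in lysine breakdown, separated the diets, with 6631 to 8539 in the Low AA mice and 9343 to 12695 in the Control mice (log2 fold change -0.54, limma adjusted p = 0.0977).

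Transsulfuration runs through Cbs, which condenses homocysteine with serine, and Cth, which releases cysteine. Cbs (chromosome 17, 31608894 to 31637238) had scaled read counts of 14011, 11283, 13473 and 15092 in the Low AA mice and 10302, 11580, 12333 and 11553 in the Control mice. Low AA mouse H828 lay among the Control mice, and the other 3 Low AA mice lay above all of them. The log2 fold change was 0.23 (SE 0.11, limma adjusted p = 0.471), the second smallest unadjusted p of the 9 genes at 0.0673, after 0.0619 for Mat1a. Cth (chromosome 3, 157894248 to 157925077) had 18006, 20170, 29733 and 32816 in the Low AA mice and 17274, 18509, 18223 and 35336 in the Control mice. The highest value was that of Control mouse F2110, and the other 3 Control mice lay between 17274 and 18509. The log2 fold change of Cth was 0.20 (SE 0.26, limma adjusted p = 0.836) and 0.44 when F2110 was left out.

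Cysteine is oxidised to its sulfinate by Cdo1 and the sulfinate is decarboxylated by Csad, the branch that makes hypotaurine and taurine. Cdo1 (chromosome 18, 46713193 to 46728395) spanned 44331 to 57797 across the Low AA livers and 42264 to 49474 across the Control livers, with overlap. Its log2 fold change, 0.07 (SE 0.12, limma adjusted p = 0.885), was the smallest in size of the 9, and it turned to -0.01 when H1315 was left out. Csad (chromosome 15, 102176999 to 102204724) had 4831, 8601, 4610 and 5078 in the Low AA mice and 8100, 9881, 4918 and 7521 in the Control mice. The groups overlapped through 1 mouse on each side, with Low AA mouse H828 among the high values and Control mouse F7111 among the low ones. The log2 fold change was -0.40 (SE 0.24, limma adjusted p = 0.578), the most negative of the 9, and -0.61 without H828 (limma adjusted p = 0.335).

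The remaining lists held 0 genes past the limma threshold. Of the 10 genes of methionine salvage and polyamine synthesis, 1 had an unadjusted p under 0.05, a share of 10% that is near the 11.8% of all genes. In this list Mtap, which opens the salvage of methylthioadenosine, was higher in every Low AA mouse (510 to 653 against 462 to 501, log2 fold change 0.21, limma adjusted p = 0.494). Adi1, a later enzyme of salvage, was lower in every Low AA mouse (2772 to 3698 against 3735 to 4588, log2 fold change -0.36, limma adjusted p = 0.258). Odc1, the first enzyme of polyamine synthesis, had the largest positive value, 0.29 (limma adjusted p = 0.53). Among 12 genes of cysteine oxidation, sulfide and taurine handling, 0 had an unadjusted p under 0.05. Log2 fold changes ran from -0.33 for Papss1, which makes the sulfate donor, to 0.39 for Got1, the cytosolic aspartate aminotransferase. Papss2, which makes the same donor, had a positive value, 0.29 (limma adjusted p = 0.621). Its mean was 3969 scaled read counts, against 170 for Papss1.

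Of 14 genes listed under cysteine uptake and glutathione synthesis, 2 had an unadjusted p under 0.05 (14.3%, against 11.8% of all genes). The list also holds genes of glutathione and peptide breakdown and of glutathione redox, among them Chac1, Lap3 and Gpx1, so its shares describe no single process. The log2 fold change was above 0 for 3 of the 14 genes, or 21.4%, where 50.5% of all genes were above 0, and the median was -0.11. In the other lists the share above 0 lay between 33.3% and 50%, and over all 67 list genes it was 37.3%. Gclc, the catalytic subunit of the enzyme that commits cysteine to glutathione, had -0.02 (limma adjusted p = 0.978), and its modifier Gclm had -0.31 (limma adjusted p = 0.366). Ggt6, of the gamma-glutamyltransferase family, had the most negative value, -0.39 (limma adjusted p = 0.45). Oplah, which recovers glutamate from 5-oxoproline, was higher in every Low AA mouse (7636 to 9567 against 6798 to 7180, log2 fold change 0.24, limma adjusted p = 0.348). Over all 67 genes of the lists, 11 had an unadjusted p under 0.05, which is 16.4% against 11.8% of all genes, and 6 separated the diets without overlap, 3 in each direction, which is 8.96% of them against 6.81% of all genes.

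**Figure D3:**
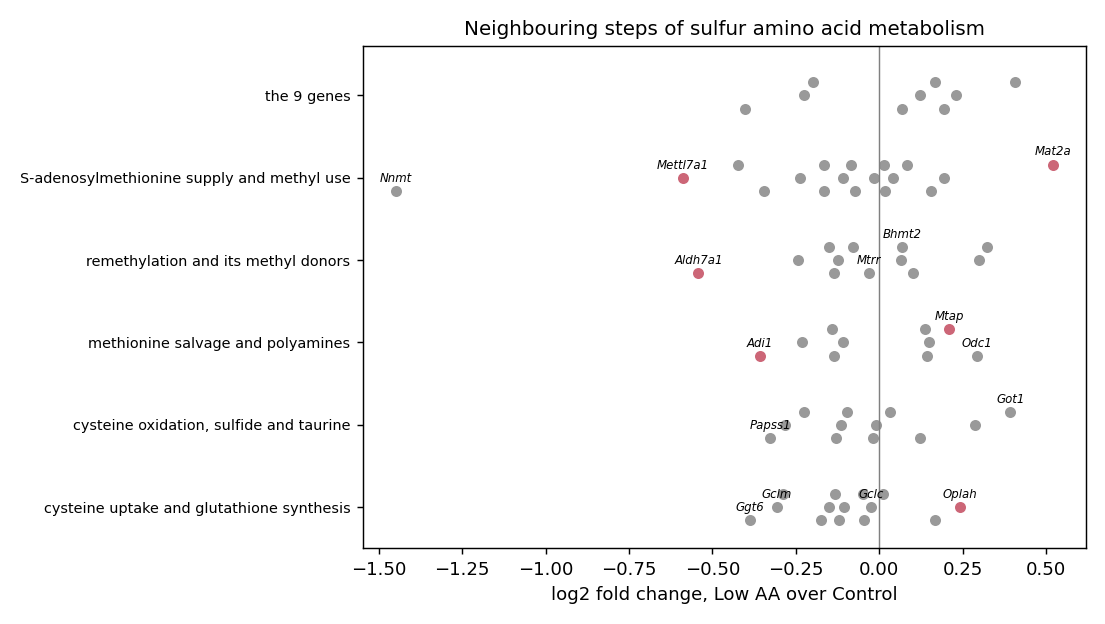
Log2 fold change, Low AA over Control, of the 9 genes and of the genes of the neighbouring lists (rows, with points shifted vertically for legibility). Red points are genes whose values do not overlap between the diets, grey points are the others, named genes are labelled, and 1 gene of the remethylation list is not drawn. Nnmt lies far left at -1.45 and Mat2a far right at 0.52, and 0 genes passed the limma threshold.

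The C/EBP-ATF letters were present in the promoters of 3 of the 49 list genes with an entry within the 300 bases searched, where 3.97% of all promoters hold them. These are shown so that the matches can be read beside the values of their genes. The runs are 28 bases, 5′ to 3′ on the strand of the gene, with the match in capitals. All 3 matches read TTGCATCA, the motif on the opposite strand.
Chac1, chr2:119351039-119351066, plus strand: ttccctgccgTTGCATCActcctgccag
Got1, chr19:43524690-43524717, minus strand: attgcattggTTGCATCAtacaagcctc
Slc1a4, chr11:20332700-20332727, minus strand: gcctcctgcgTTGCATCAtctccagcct
The log2 fold changes of Chac1, Got1 and Slc1a4 were -0.11, 0.39 and -0.29, with limma adjusted p of 0.958, 0.653 and 0.777. Chac1, an enzyme that degrades glutathione, was low in every mouse, between 12 and 67 scaled read counts. The antioxidant response element letters were present in 6 of the 49, Adk, Ahcyl1, Gclm, Ggct, Mmachc and Mpst, where 12.4% of all promoters hold them.

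A ratio of 2 genes within a mouse does not depend on how the mouse was scaled. Of 7 such ratios, 1 did not overlap between the diets. The log2 ratio of Gnmt to Mat1a was -4.10, -4.35, -4.20 and -3.69 in the Low AA mice and -3.47, -3.01, -3.65 and -3.68 in the Control mice. The groups nearly touched, between Low AA mouse H1315 at -3.685 and Control mouse F2110 at -3.679, and the means were -4.08 ± 0.28 and -3.45 ± 0.31 (SD, n = 4 each). Of the ratios of all other genes to Mat1a, 9.33% did not overlap. The ratio of Bhmt to Mtr ranged from 10.22 to 11.97 and from 10.34 to 11.30, that of Csad to Cdo1 from -3.51 to -2.37 and from -3.33 to -2.10, and that of Mat1a to Mat2a from 6.25 to 6.90 and from 6.57 to 6.92, in Low AA and Control mice respectively. Cbs set against Bhmt or Mtr, and Cdo1 set against Gclc, also overlapped. These ratios were not tested.

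**Figure D4:**
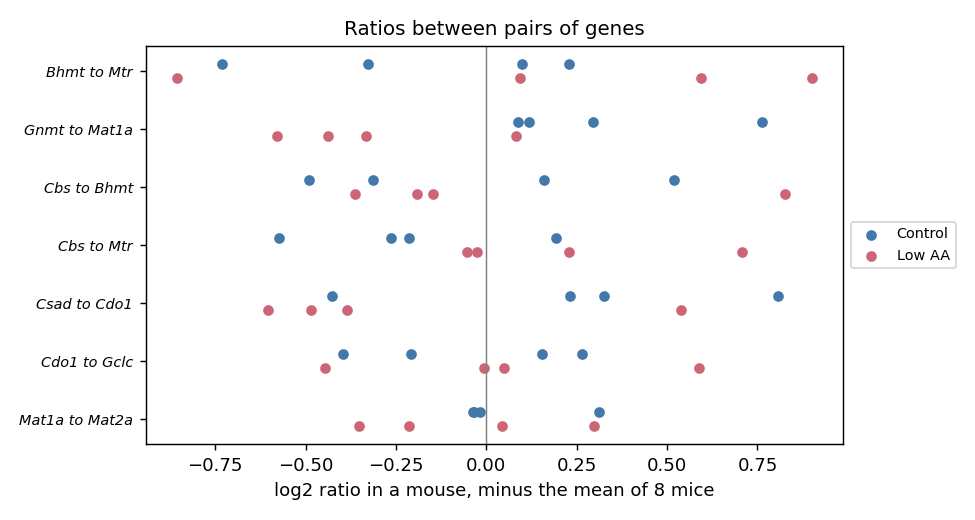
Log2 ratio of each pair of genes in each mouse, minus the mean of the 8 mice (horizontal axis), for Control (blue) and Low AA (red) mice. In the row of Gnmt to Mat1a the red points lie left of the blue ones, with -3.685 and -3.679 as the closest pair before centring, and the colours mix in the other rows.

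The spread between mice of one diet was large for several of these genes. The within-diet SD on the log2 scale was 0.58 for Bhmt, and only 6 of the 109 genes nearest to it in mean value, up to 100 ranks on either side, had a larger one. It was 0.46 for Cth and 0.42 for Csad, with 15 and 11 of 200 such neighbours above them. For Gnmt it was 0.37, with 27 of 200 above. Cbs (0.15, with 130 of 200 above) and Cdo1 (0.14, with 141 of 176 above) varied less than most genes of their level. Low AA mouse H1315 was the highest of its group for 6 of the 9 genes, and Low AA mouse H828 was the lowest for 6. These were also the mice with the largest and the smallest sum of values. After scaling to equal sums the counts were 4 and 5, and the part of the sums in the results was not tested further. Without H828, 4 of the 9 genes, Mat1a, Bhmt, Cbs and Csad, had an unadjusted p under 0.05, and 0 passed in limma after adjustment, where the smallest adjusted p of the 4 was 0.335. With any 1 other mouse left out, the count at an unadjusted p under 0.05 was between 0 and 2. The share of all genes at that level in these fits is not given here, so the 4 of 9 has no background beside it. In the Control group F129 and F2212 were each the lowest for 4 genes. F2212, the mouse with high Cela1, was the lowest of its group for Ahcy, Bhmt, Mtr and Cdo1 and the highest for Gnmt and Csad.

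**Figure D5:**
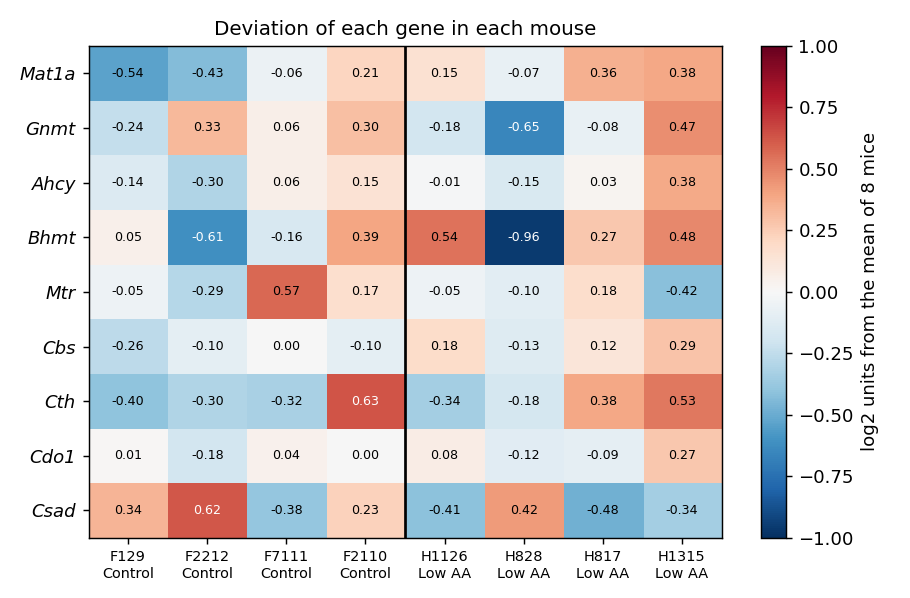
Difference of log2(value + 1) from the mean of the 8 mice, for each gene (rows) in each mouse (columns, Control left of the line and Low AA right of it). Red is above and blue below the mean, and the cells give the values in log2 units. The strongest cell is Bhmt in H828, at -0.96, and Csad has 0.62 in F2212.

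For the 3 genes that ranged most over the mice, the genes of most similar pattern were sought over all 8 mice by the mean absolute difference of log2 values, after centring each gene on its own mean. Bhmt was nearest to 2410137F16Rik (0.16 log2 units) and Armcx5 (0.17), against a mean absolute deviation of 0.43 for Bhmt itself. Gnmt was nearest to Gmnn (0.08) and Tab1 (0.09), and Csad to Ccdc85b (0.10) and Tspan17 (0.13). Of the 9 genes, the nearest to Bhmt was Mat1a at 0.31 and the nearest to Gnmt was Ahcy at 0.22, against a mean absolute deviation of 0.29 for Gnmt itself. The nearest to Csad was Cdo1 at 0.48, which is more than the 0.40 of Csad's own deviation.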

How the data were processed

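Poly(A) liver RNA of 8 mice was sequenced from stranded libraries, and each mouse was used as 1 replicate of its diet group. The authors deposited 1 table with a signal for each gene and mouse, which is a scaled read count rounded to a whole number. The scaling was inferred from regular gaps and doublings among low values. The submitters' processing notes name the build mm10 and STAR 2.5.0a, RSEM 1.2.6 and edgeR 3.10.5, without their roles. The authors also deposited their own signed fold change, a score, and their FDR, a q-value, which were not used. The third highest value of every gene was 28 or more, so low genes had been removed. The sums of the values show no raw depth, and count models were not run on rounded values.

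Values were taken as log2(value + 1) and compared with limma 3.58.1 in R 4.3.3 (mean-variance trend, two-sided, Benjamini-Hochberg over 11784 genes, threshold 0.05), so fold changes of low genes are understated. Requiring 1 or more in 4 mice removed no gene, and the fit was tested on simulated data. The 9 genes and the 5 lists (67 of 72 genes in the table, older symbols matched through RefSeq) were chosen with earlier results of these data known. Lists came from general knowledge. Named genes were the 9, the list genes past the threshold or without overlap, the largest rise and fall in each list, Mat2a, Bhmt2, Mtrr, Gclc and Gclm, and the 2 most similar genes for 3 of the 9. Mat2b, Papss2, Chac1, Slc1a4 and the TATAA letters were added once values were known. A named gene and a promoter sequence are not reported here. Exon lengths and positions came from GENCODE vM21 on GRCm38. Mice were group housed, and which of them shared a cage is not given in the sources used here. Alternatives were other scalings, pseudocounts of 0.1 and 5, the 8000 genes of highest mean, other moderation, and each mouse left out.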

Additional observations from a re-analysis of the deposited data

Results flagged for a closer look

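In 4 of 64 groups of 4 mice examined, 1 mouse lay far from the other 3, measured as the gap to the nearest mouse over the whole range, and chance gives about 1 in 20. Control mouse F2110 was above the other Control mice for Cth (gap over range 0.904), with 35336 scaled read counts against 17274 to 18509. The same mouse was above the others for the log2 ratio of Mat1a to Mat2a (0.945), at 6.92 against 6.57 to 6.59. Low AA mouse H828 was above the other Low AA mice for Csad (0.845), with 8601 against 4610 to 5078. Control mouse F7111 was above the other Control mice for Mettl7a1 (0.844), with 4741 against 4131 to 4221.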

How the results depend on the processing

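The count of called genes among the 9 was 0 in the main limma analysis and in all 17 alternatives, and among the 67 list genes it was likewise 0. At an unadjusted p under 0.05 the count of the 9 was 0 in the main limma analysis, where 11.8% of all genes passed. It was 1 with equal sums (Cbs), 1 with robust moderation and 1 with vooma weights (Mat1a both times). With a mouse left out it was up to 4, reached without H828. The share of all genes in these alternatives is not given here, so their counts have no background beside them. By the exact two-sided permutation test the smallest p of the 9 was 0.114 (Cbs), where 0.0286 is the smallest possible. Over all 11784 genes, 47 were called, against 19 among the 8000 genes with the highest mean, where Mtr was not tested, and 30 with no mean-variance trend. With a mouse left out the count ran from 16 (H817) to 77 (F2212), with 19 for H828, 21 for H1126 and 29 for F129. The sign of a log2 fold change turned for Bhmt, at -0.01 without F2212 (range -0.01 to 0.51), and for Cdo1, at -0.01 without H1315 (range -0.01 to 0.12). It also turned for Bhmt2, at -0.014 without F2212. Gclc ranged from -0.139 to 0.117, positive without H1315 (0.079) and without F7111 (0.117), and Mtrr from -0.151 to 0.054, positive without H1126 (0.054), F2212 (0.029) and F7111 (0.029). The other ranges were 0.30 to 0.55 for Mat1a, -0.42 to -0.04 for Gnmt, 0.02 to 0.19 for Ahcy, -0.33 to -0.04 for Mtr, 0.17 to 0.31 for Cbs, 0.05 to 0.44 for Cth and -0.61 to -0.26 for Csad. Causes of these changes were not tested. Scaling moved the median of all genes by less than 0.1 on the log2 scale. No paired analysis was possible because the labels give mouse codes that are not shared between the diets.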
